A study of Mus musculus with 4 samples.

Results

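The genes described here encode the proteins of oxidative phosphorylation that the nucleus contributes to complexes I to V of the mitochondrial inner membrane. They were chosen by symbol alone: names that begin with Nduf, Uqcr or Atp5, the genes Sdha to Sdhd, Cyc1, and names that begin with Cox4 to Cox8 followed by further characters. The rule found 94 of the 20280 genes with a symbol on the array, made up of 46 genes of complex I, 4 of complex II, 9 of complex III, 18 of complex IV and 17 of complex V. The cells are mouse lymphoid-primed multipotent progenitors (LMPP), which are found in bone marrow and still form lymphoid and myeloid cells. All cells came from IRF8-GFP knock-in mice, in which green fluorescent protein reports IRF8, a transcription factor needed for monocytes and dendritic cells, and all passed the same sort for lineage-negative, IL-7R-negative, Sca-1, CD117, CD34 and CD135-positive, CD150-negative cells. The sort divided them into an IRF8-GFP positive and an IRF8-GFP negative group, each with 2 one-colour Agilent arrays labelled exp 1 and exp 2. Nothing in the labels ties the 2 arrays of a group to different animals, and the p-values therefore reflect array-to-array spread that may be technical alone. Strain, age, copies of the knock-in allele and any pooling of animals are not given in the sources used here.

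Complex I takes electrons from NADH and complex II takes them from succinate, and both pass them through ubiquinone to complex III, cytochrome c and complex IV, where oxygen is reduced. Complexes I, III and IV pump protons across the inner membrane, and complex V, the ATP synthase, lets them back to make ATP. Blood stem cells are known for leaning on glycolysis, while progenitors that divide and differentiate rely more on respiration.

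Nearly all of these genes gave a higher signal in IRF8-GFP positive than in IRF8-GFP negative LMPP, by a small and similar amount. Of the 94 genes, 90 were tested, and all 90 were well above background on all 4 arrays. By limma, with p-values adjusted over 22362 genes and unnamed transcripts and a threshold of 0.05, 87 were higher in IRF8-GFP positive LMPP, 0 were lower, and 3 did not pass. Of all tested genes, 38.5% were higher and 21.4% lower. The median difference of the 90 genes was 0.66 on the log2 scale (positive minus negative, quartiles 0.56 and 0.74), and 80 of them lay between 0.40 and 0.90. Both positive arrays were above both negative arrays for 89 of the 90, where 52.4% of all tested genes were ordered in this way. Among the 5591 brightest tested genes the order was more common, and 4472 of them had it. Of the 90 genes, 79 were among those 5591, and 78 of the 79 had it. These counts are also to be set beside the bright genes below whose groups did not overlap. Only Cox6a2, Ndufab1 and Uqcrq were higher by 2-fold or more, a class that held 2.33% of all tested genes. Uqcrq did not stay at 2-fold under all the scalings described below. The RNA is that of sorted populations, in which fewer cells of a type and less RNA per cell cannot be told apart.

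**Figure D1:**
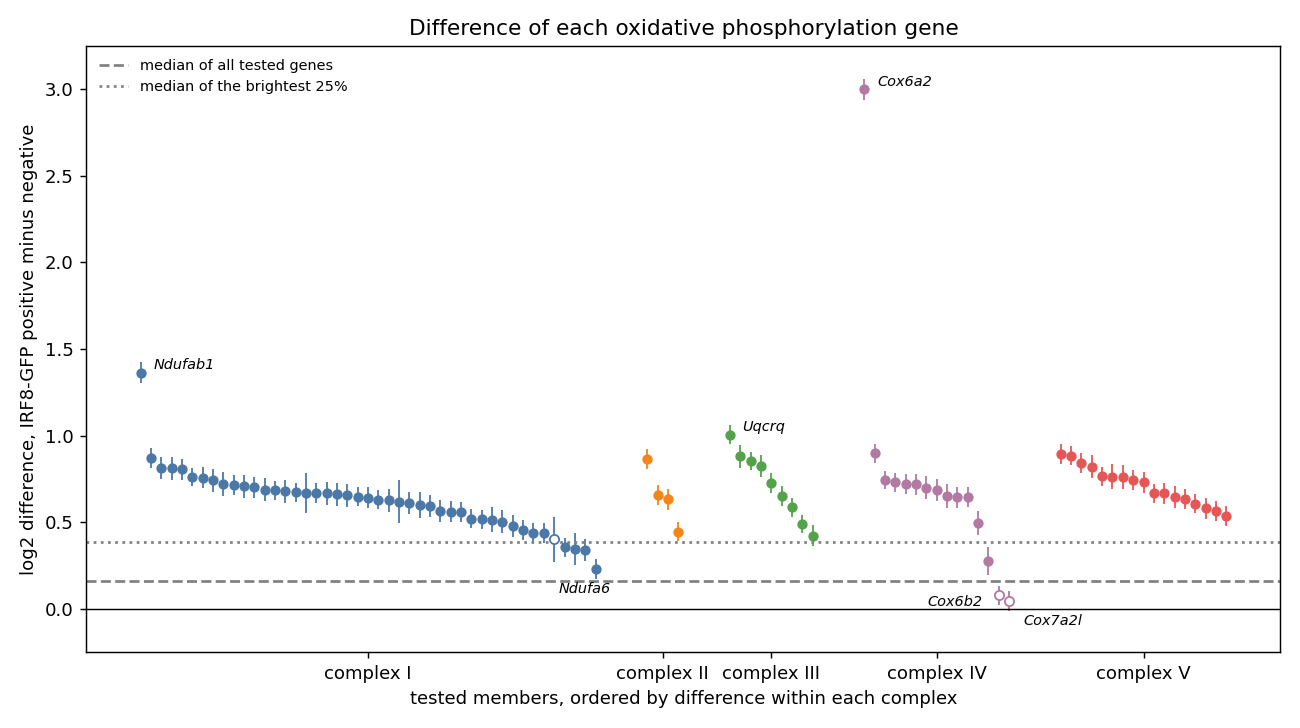
Log2 difference (IRF8-GFP positive minus negative, with its standard error) of each of the 90 tested genes, grouped by complex and ordered within it, with filled points for adjusted p under 0.05 and open points otherwise. All points lie above 0 and most sit between 0.40 and 0.90, with Cox6a2 at 3.0 far above the rest and Cox7a2l at 0.04 the lowest.

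The groups were checked first on Irf8 and on the genes of the sort. Irf8 stood at 5.13 and 5.22 on the positive arrays, against 1.64 and 1.60 on the negative arrays, on the scale of every level below, which is log2 signal above or below the 75th percentile of the array (difference 3.55, limma adjusted p = 0.000802). Kit (CD117) and Ly6a (Sca-1) were lower in IRF8-GFP positive LMPP, at -0.39 and -0.96, whereas Il7r, which the sort selected against, was higher by 2.40. Kit lost its call without the exp 1 negative array (-0.40) or the exp 2 negative array (-0.37). Flt3 (CD135, 0.25) and Cd34 (0.26) were above 0 here and below 0 under quantile, deposited-matrix, spike-in and loess scaling, and Flt3 lost its call without any 1 array (0.22 to 0.28), as Cd34 did without any 1 other than the exp 1 positive array (0.23 to 0.29). All 5 LMPP markers tested, Flt3, Kit, Ly6a, Cd34 and Ptprc, were detected on all 4 arrays. The positive arrays had 29631 and 30266 spots well above background, against 33506 and 33681 on the negative arrays, and no spot was saturated.

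These genes are brightly expressed, and in these arrays bright genes as a whole ran higher in IRF8-GFP positive LMPP. The median difference of all tested genes was 0.16, and that of the brightest 25% of them was 0.38. In that class 67.1% of genes were higher and 7.85% lower. Of the 90 genes, 79 fell in the brightest 25%, and 78 of those 79 were higher. Relative to the median of all genes, the 90 were shifted by 0.50, with 88 above it, and 83 lay above the median of the brightest 25%.

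**Figure D2:**
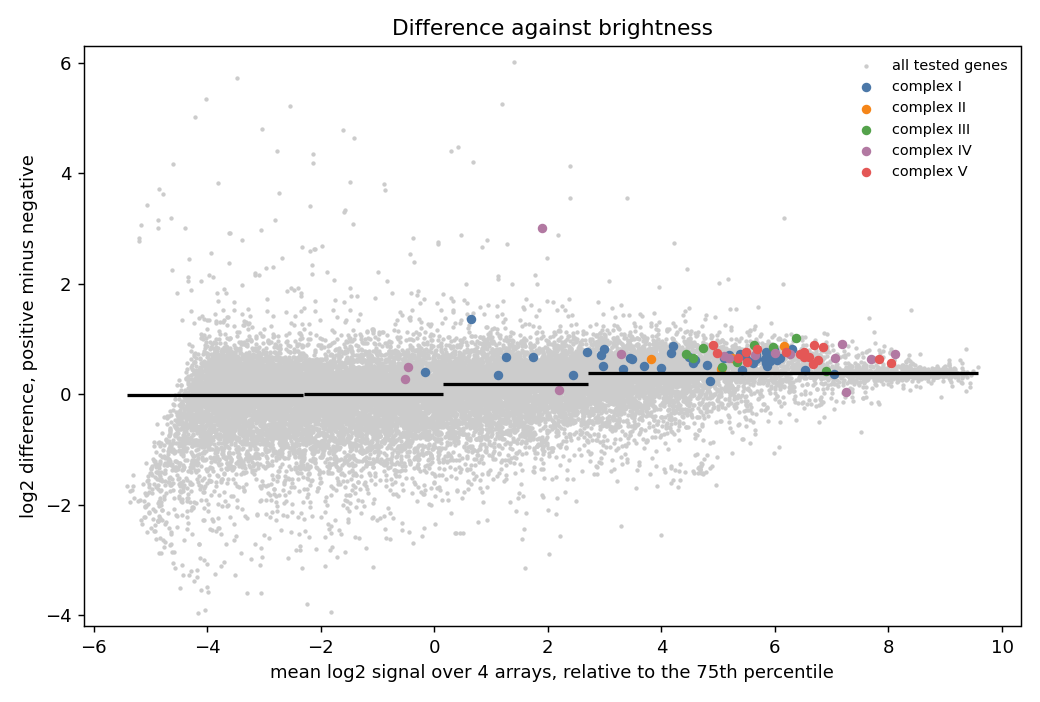
Log2 difference (IRF8-GFP positive minus negative) against mean log2 signal over 4 arrays for all 22362 tested genes (grey) and the 90 oxidative phosphorylation genes (coloured by complex), with black lines at the medians of 4 equal classes by brightness. The line of the brightest class lies at 0.38 and most coloured points lie above it.

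How the arrays were put on 1 scale changed the size of the shift and the number of calls. The 8 scalings were the 75th percentile of all probes, the same percentile after normexp background correction or over detected probes, quantile normalization, the deposited matrix, spike-in controls, cyclic loess and centring on the tested genes. Under all 8, the median of the 90 genes stayed above that of all genes and above that of the brightest 25%. The 8 are not independent. The percentile of all or of detected probes, spike-in scaling and centring differ only by a constant per array. They therefore give the same shift over all genes (0.50) and the same ratio of any 2 genes. The deposited matrix gave nearly the same shift as quantile normalization (0.21 in both). Under cyclic loess, which removes a trend of the difference with brightness, the 90 had a median of 0.28, against 0.01 for all genes and -0.01 for the brightest 25%, and 61 were higher and 1 lower. Under scaling to the spike-in controls the median was 0.35, against -0.14 for all genes, with 71 higher and 2 lower. Quantile normalization gave 57 higher and 1 lower, and the authors' deposited matrix gave 56 higher and 1 lower. The share of all tested genes that was higher or lower also moved, to 24.5% and 25.8% under loess, 14.8% and 36.2% under spike-in scaling 27.1% and 24.4% under quantile normalization and 27% and 24.5% in the deposited matrix. In sign, 83 of the 90 genes were higher under all 8 scalings, and 51 were also past the threshold in all 8. The 7 genes that turned sign under at least 1 scaling were Ndufb11, Ndufa13, Ndufa6, Uqcrh, Cox4i2, Cox6b2 and Cox7a2l.

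**Figure D3:**
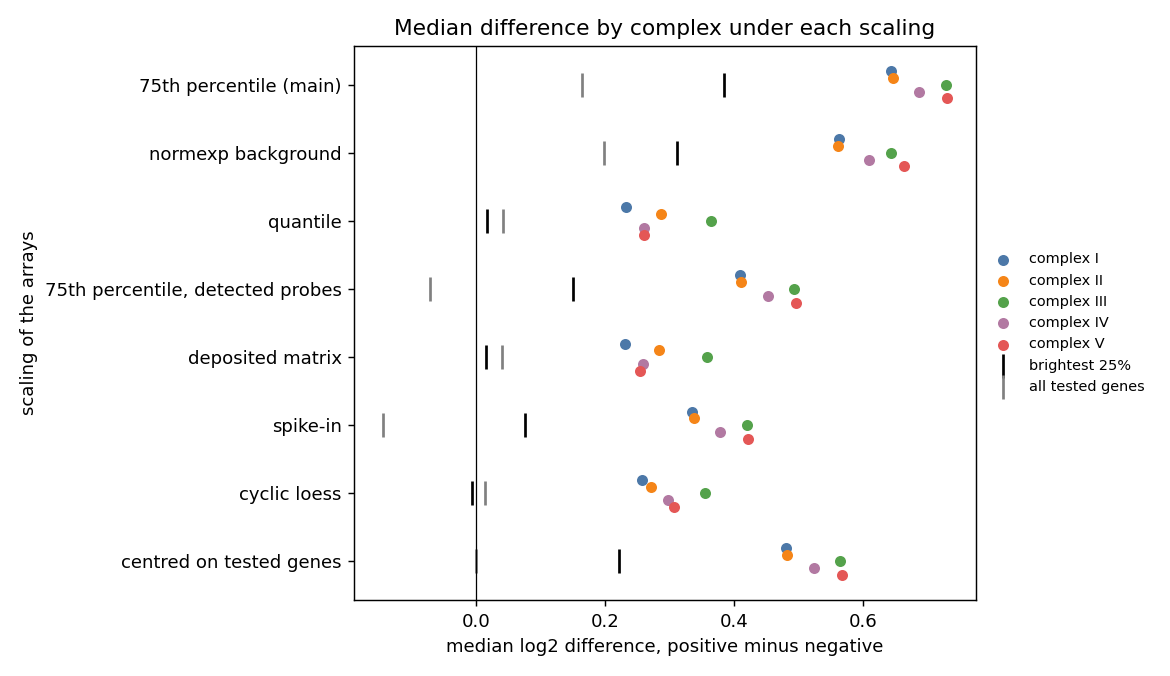
Median log2 difference (IRF8-GFP positive minus negative) of each complex under 8 scalings of the arrays, with black and grey ticks for the brightest 25% and for all tested genes. Under each scaling the 5 complexes lie to the right of both ticks, with medians of 0.64 to 0.73 under the 75th percentile and 0.26 to 0.35 under cyclic loess.

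Promoters are shown for 3 genes that rose and for Cox7a2l, which did not pass the test. Of the 3, Atp5j (0.58) was past the threshold under 5 of the 8 scalings and did not pass under loess (0.18). Nuclear genes of respiration are known targets of the factors NRF1, GABP (of the ETS family) and YY1. The bases are the 250 before the annotated start in RefSeq's GRCm38.p6 annotation, 5′ to 3′ on the gene's strand, with letters matching a motif in capitals. Cox6a1 (chr5:115348959-115349208, minus strand) encodes the common form of a complex IV subunit, Sdhb (chr4:140961021-140961270, plus strand) the iron-sulfur subunit of complex II, Atp5j (chr16:84834977-84835226, minus strand) a stalk subunit of the ATP synthase, and Cox7a2l (chr17:83514334-83514583, minus strand) a factor that joins complexes III and IV.
Cox6a1: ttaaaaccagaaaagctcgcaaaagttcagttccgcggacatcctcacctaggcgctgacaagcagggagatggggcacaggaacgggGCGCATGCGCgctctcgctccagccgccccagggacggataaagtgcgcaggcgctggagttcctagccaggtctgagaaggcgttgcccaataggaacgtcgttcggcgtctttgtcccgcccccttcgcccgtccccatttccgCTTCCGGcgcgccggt
Sdhb: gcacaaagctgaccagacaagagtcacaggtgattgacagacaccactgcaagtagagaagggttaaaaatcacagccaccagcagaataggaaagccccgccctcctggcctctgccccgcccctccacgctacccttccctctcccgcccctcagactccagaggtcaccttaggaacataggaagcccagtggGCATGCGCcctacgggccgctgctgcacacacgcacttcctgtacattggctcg
Atp5j: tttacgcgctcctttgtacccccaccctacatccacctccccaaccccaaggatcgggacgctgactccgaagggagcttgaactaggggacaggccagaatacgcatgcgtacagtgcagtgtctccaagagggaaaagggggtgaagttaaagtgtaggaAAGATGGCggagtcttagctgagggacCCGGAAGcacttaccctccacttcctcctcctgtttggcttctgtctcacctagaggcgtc
Cox7a2l: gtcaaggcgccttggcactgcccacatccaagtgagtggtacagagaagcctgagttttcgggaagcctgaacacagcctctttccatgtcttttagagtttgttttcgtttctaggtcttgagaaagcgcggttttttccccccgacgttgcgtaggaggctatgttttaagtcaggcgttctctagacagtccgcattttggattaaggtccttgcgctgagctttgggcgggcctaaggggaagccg
In Cox6a1 the capitals mark overlapping NRF1 matches beginning 162 and 160 bases before the start on opposite strands, and an ETS match at 16 bases. In Sdhb they mark an NRF1 match at 54 bases, and in Atp5j a YY1 match at 88 bases and an ETS match at 61 bases. The stretch of Cox7a2l holds none of these letters.

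Promoters of 76 of the 94 genes were in the RefSeq table, and 300 bases of each, from 250 before the start to 50 after it, were searched on both strands. The letters GCGCATGC (NRF1) were in 12 of them (15.8%), against 3.05% of the 27025 genes with a promoter in the table. CCGGAAG (ETS) was in 19 (25%), against 9.93%, and AAGATGGC (YY1) in 11 (14.5%), against 3.19%. The NRF1 letters overlap their own reverse complement where the full palindromic core is present, as in Cox6a1, and that core was in 7 of the 76 genes (9.21%), against 1.07% of all. At least 1 of the 3 motifs was in 35 of the 76 genes (46.1%), against 14.9% of all genes. Among the tested genes, the 35 with a motif had a median difference of 0.72 and the 39 without one 0.65. Those with a motif included Ndufaf5 (NRF1), which did not pass the test. They also included Ndufa6 (NRF1) and Uqcrh (ETS), which turned sign under at least 1 scaling. These matches describe letters and not bound sites, and the 4 promoters were chosen after the values of the genes were seen. The 27025 genes were not matched to the 76 by brightness. Whether these factors play a part in the differences was not tested.

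In complex I, 44 of 45 tested genes were higher in IRF8-GFP positive LMPP, 0 were lower, and the median difference was 0.64. Ndufb11, Ndufa13 and Ndufa6, at 0.44, 0.36 and 0.23 here, fell below 0 under at least 1 scaling, to -0.04, -0.08 and -0.16 at the lowest. Ndufa6 lost its call without any 1 array (0.19 to 0.27) and Ndufa13 without the exp 1 or the exp 2 negative array (0.35 and 0.36). The 7 core subunits encoded in the nucleus, which carry the flavin and the iron-sulfur clusters, were all higher (median 0.59, from 0.44 for Ndufs3 to 0.70 for Ndufv2). The 29 accessory subunits, which surround that core, were all higher as well, with a median of 0.66. Fewer passed under other scalings: 3 of the 7 core subunits were higher under cyclic loess (median 0.19) and 13 of the 29 accessory subunits under quantile normalization, with 0 lower in either case, and Ndufs3 stood at 0.014 under the deposited matrix. Over all of complex I, 23 of 45 genes were higher under quantile normalization.

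Ndufab1 was the gene of complex I that differed most. It encodes the mitochondrial acyl carrier protein, which serves in fatty acid and lipoic acid synthesis and is also built into complex I. Its signal was 1.37 and 1.29 on the positive arrays, against -0.04 and -0.02 on the negative arrays. Both positive arrays were high and the groups did not overlap, a 2.57-fold difference (log2 1.36, SE 0.06, limma adjusted p = 0.00141). Over the 8 scalings its difference did not drop below 1.06. Ndufb6, a subunit of the membrane arm, had 4.63 and 4.65 on the positive arrays, against 3.74 and 3.80 on the negative arrays (0.87, SE 0.06, adjusted p = 0.00195). Ndufa11, in the same arm, had 3.44 and 3.37 on the positive arrays, against 2.63 and 2.55 on the negative arrays (0.82, adjusted p = 0.00226). Both were high on both positive arrays with no overlap. Ndufs6, a zinc-binding subunit of the part that takes electrons from NADH, had 6.65 and 6.75 on the positive arrays, against 5.92 and 5.86 on the negative arrays (0.81, adjusted p = 0.00243). Ndufb7 and Ndufb8, further membrane arm subunits, were higher by 0.81 and 0.76.

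Of the 8 tested Ndufaf genes, which help to assemble complex I and are not part of it, 7 were higher, with a median of 0.59. Ndufaf4 had 3.05 and 3.1 on the positive arrays, against 2.34 and 2.29 on the negative arrays (0.76, adjusted p = 0.00222), and Ndufaf2 and Ndufaf8 differed by 0.71 and 0.67. Ndufaf8 lost its call without the exp 1 negative array (0.57). Ndufaf5 did not pass: it had 0.18 and -0.11 on the positive arrays, against -0.28 and -0.46 on the negative arrays (0.40, SE 0.13, adjusted p = 0.0569). Its positive arrays scattered more than those of the other Ndufaf genes, the groups did not overlap, and it passed without the exp 2 positive array (0.55).

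All 4 subunits of complex II, the succinate dehydrogenase that belongs also to the citric acid cycle, were higher in IRF8-GFP positive LMPP, with a median of 0.65. Sdhb, the iron-sulfur subunit, had 6.63 and 6.57 on the positive arrays, against 5.73 and 5.74 on the negative arrays (0.86, SE 0.06, adjusted p = 0.00195). Sdha, the flavin subunit that oxidises succinate, had 5.27 and 5.29 on the positive arrays, against 4.81 and 4.86 on the negative arrays (0.45, SE 0.06, adjusted p = 0.00533). The membrane anchors Sdhc and Sdhd lay between them, at 0.63 and 0.66. No array of one group overlapped the other for any of the 4 genes. Under quantile normalization and loess 3 of the 4 were higher, and Sdha did not pass (0.041 and 0.058), nor did it in the deposited matrix (0.038).

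All 9 genes of complex III were higher, with a median of 0.73, although Uqcrh (0.42) turned to -0.04 under the deposited matrix and lost its call without the exp 1 negative array (0.42). Uqcrq, a small subunit beside the membrane core, had 6.86 and 6.89 on the positive arrays, against 5.87 and 5.87 on the negative arrays. The groups stood apart by 2.01-fold (log2 1.01, SE 0.05, adjusted p = 0.00164), and its other kept probe gave the same 1.01. This was its highest difference over the 8 scalings. It was 0.58 under loess and 0.53, the lowest, under the deposited matrix, and it passed under all 8. Uqcr10 and Uqcr11, also small subunits, differed by 0.88 and 0.85. Cyc1, the cytochrome that hands electrons to cytochrome c, had 5.13 and 5.15 on the positive arrays, against 4.36 and 4.27 on the negative arrays (0.83, SE 0.06, adjusted p = 0.00217). Uqcrfs1, the Rieske iron-sulfur protein, differed by 0.65, and the core proteins Uqcrc1 and Uqcrc2 by 0.73 and 0.49. Under quantile normalization 6 of the 9 were higher.

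Complex IV spread the most. Of its 15 tested genes 13 were higher and 0 lower, with a median of 0.69, and its differences ran from 0.04 for Cox7a2l to 3.0 for Cox6a2. Under spike-in scaling 2 of its genes, Cox6b2 and Cox7a2l, were lower. The subunits used in most tissues moved closely together, with Cox5a at 0.90, Cox7b at 0.74, Cox6b1 at 0.73, Cox6a1 and Cox6c at 0.72, Cox5b at 0.70, Cox7a2 at 0.69, Cox4i1 and Cox7c at 0.65 and Cox8a at 0.64. Cox5a, which sits beside the catalytic core, had 7.64 and 7.63 on the positive arrays, against 6.74 and 6.73 on the negative arrays (SE 0.05, adjusted p = 0.00176). Ndufa4, listed under complex I by its name and known as a subunit of complex IV, had 5.87 and 5.94 on the positive arrays, against 5.36 and 5.32 on the negative arrays (0.56, adjusted p = 0.00360). For each of these genes both positive arrays were the high ones.

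Cox6a2 is the form of subunit 6a known from heart and skeletal muscle, and it is also known as a transcript of plasmacytoid dendritic cells. It had 3.44 and 3.37 on the positive arrays, against 0.39 and 0.42 on the negative arrays. That is 8.0-fold (log2 3.0, SE 0.06, adjusted p = 0.000802), place 39 of 22362 by fitted difference, and the probe was well above background on all 4 arrays. Cox6a1, the common form of the same subunit, had 8.47 and 8.48 on the positive arrays, against 7.78 and 7.72 on the negative arrays. Within an array the Cox6a2 to Cox6a1 ratio was 4.84-fold higher in IRF8-GFP positive LMPP (log2 2.28, SE 0.06), and between 2.13 and 2.55 over the 8 scalings.

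Marker lists of other cell types were read beside Cox6a2. Striated muscle markers summed to 0.333 and 0.262 times the 75th percentile signal on the positive arrays, against 0.266 and 0.255 on the negative arrays, and Actc1 and Tnnt2 were well above background on no array. Of these 5 markers 2 were tested, and 1, the muscle creatine kinase Ckm, was higher (0.43, adjusted p = 0.0288), though not without the exp 1 or the exp 2 negative array (0.45 and 0.41). The 9 plasmacytoid dendritic cell markers other than Cox6a2 summed to 177 and 153 on the positive arrays, against 191 and 146 on the negative arrays. Of these, 7 were tested, 3 were higher (Ly6d by 3.34, Bst2 by 0.46 and Tcf4 by 0.37), 2 were lower (Irf7 at -1.26 and Ccr9 at -1.81), and Klk1 and Spib were well above background on no array. Without the exp 1 negative array Bst2 (0.47) and Tcf4 (0.28) lost their calls, as Bst2 did without the exp 2 negative array (0.44) and Tcf4 without the exp 1 positive array (0.36). The sums of the groups overlapped for both lists. Siglech, the brightest plasmacytoid marker, weighed most in the sums of its list and did not pass (-0.20, limma adjusted p = 0.501). It had 6.86 and 6.51 on the positive arrays, against 7.15 and 6.61 on the negative arrays. Those sums therefore say little about dimmer markers such as Ly6d and Ccr9. The 5 monocyte markers were all higher and summed to 86.0 and 89.9 on the positive arrays, against 9.61 and 9.41 on the negative arrays. Granule and neutrophil markers, 9 in number with 5 higher and 1 lower and with Ltf above background on no array, summed to 865 and 790 on the positive arrays, against 234 and 237 on the negative arrays. The 5 higher were Mpo (1.53), Elane (1.57), Ctsg (3.19), Prtn3 (1.46) and Ms4a3 (2.88), and the lower was S100a9 (-1.11). S100a8 (-1.16) and Camp (-0.09) did not pass. Mpo, the brightest of the list, weighed most in its sums, which therefore say little about the dimmer S100a8, S100a9 and Camp. Conventional dendritic cell markers (3 of 4 tested higher, 0 lower, with Xcr1 above background on no array) summed to 2.68 and 2.75 on the positive arrays, against 1.01 and 1.01 on the negative arrays. The sums of these lists were higher on both positive arrays, though not every marker was. Of 5 erythroid markers tested, 0 were higher and 4 lower, with a median of -0.59. Megakaryocyte markers (0 of 4 tested higher, 3 lower) summed to 2.09 and 2.13 on the positive arrays, against 5.76 and 5.79 on the negative arrays. They summed higher on both negative arrays. B lineage markers (1 of 3 tested higher, 0 lower, with Ebf1 above background on no array) summed to 1.31 and 1.35 on the positive arrays, against 0.80 and 0.85 on the negative arrays. The part that such shifts between cell types play in the differences of the respiratory genes was not tested.

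Cox7a2l had the smallest difference of the 90 genes. It encodes a relative of Cox7a that is not a regular subunit and links complexes III and IV in supercomplexes. It had 7.30 and 7.24 on the positive arrays, against 7.21 and 7.24 on the negative arrays, which overlap (0.04, SE 0.06, adjusted p = 0.542). Its 3 probes gave 0.04, 0.01 and -0.03, and its difference fell below 0 under 7 of the 8 scalings. Under loess it was past the threshold and lower (-0.40, limma adjusted p = 0.0123). Cox7a2, the common Cox7a subunit, had 5.41 and 5.47 on the positive arrays, against 4.72 and 4.78 on the negative arrays (0.69, adjusted p = 0.00273). The Cox7a2l to Cox7a2 ratio within an array was lower in IRF8-GFP positive LMPP, at -0.64 on the log2 scale (SE 0.06, from -0.70 to -0.63 over the scalings).

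Of the other tissue forms of complex IV, Cox7a1 and Cox4i2 passed the test and Cox6b2 did not. Cox6b2, known from testis, had 2.22 and 2.25 on the positive arrays, against 2.13 and 2.18 on the negative arrays (0.08, SE 0.06, adjusted p = 0.285), with no overlap but a gap no wider than the spread, and it lay below 0 under 6 of the 8 scalings. Its ratio to Cox6b1 changed by -0.65 (SE 0.04, -0.65 to -0.55 over the scalings). Cox7a1, the muscle form, had -0.16 and -0.28 on the positive arrays, against -0.70 and -0.74 on the negative arrays (0.50, adjusted p = 0.00702), and lost the call without the exp 2 negative array (0.47). Its ratio to Cox7a2 changed by -0.19 and took either sign over the scalings (-0.21 to 0.26). Cox4i2, the lung form known for its response to low oxygen, had -0.35 and -0.39 on the positive arrays, against -0.57 and -0.74 on the negative arrays (0.28, SE 0.08, adjusted p = 0.0447). It passed narrowly, lost the call when any 1 array was left out (0.19 to 0.36), and stood at -0.03 under spike-in scaling. Its ratio to Cox4i1 changed by -0.37 and also took either sign (-0.37 to 0.09). For each of the 5 ratios an exact two-sided permutation test gave p = 0.333, the smallest that 2 against 2 arrays can give, and 0.333 after adjustment over the 5. The muscle and testis forms Cox7b2, Cox8b and Cox8c, and Ndufa4l2, a relative of Ndufa4, were well above background on 0 of 4 arrays and were not tested.

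**Figure D4:**
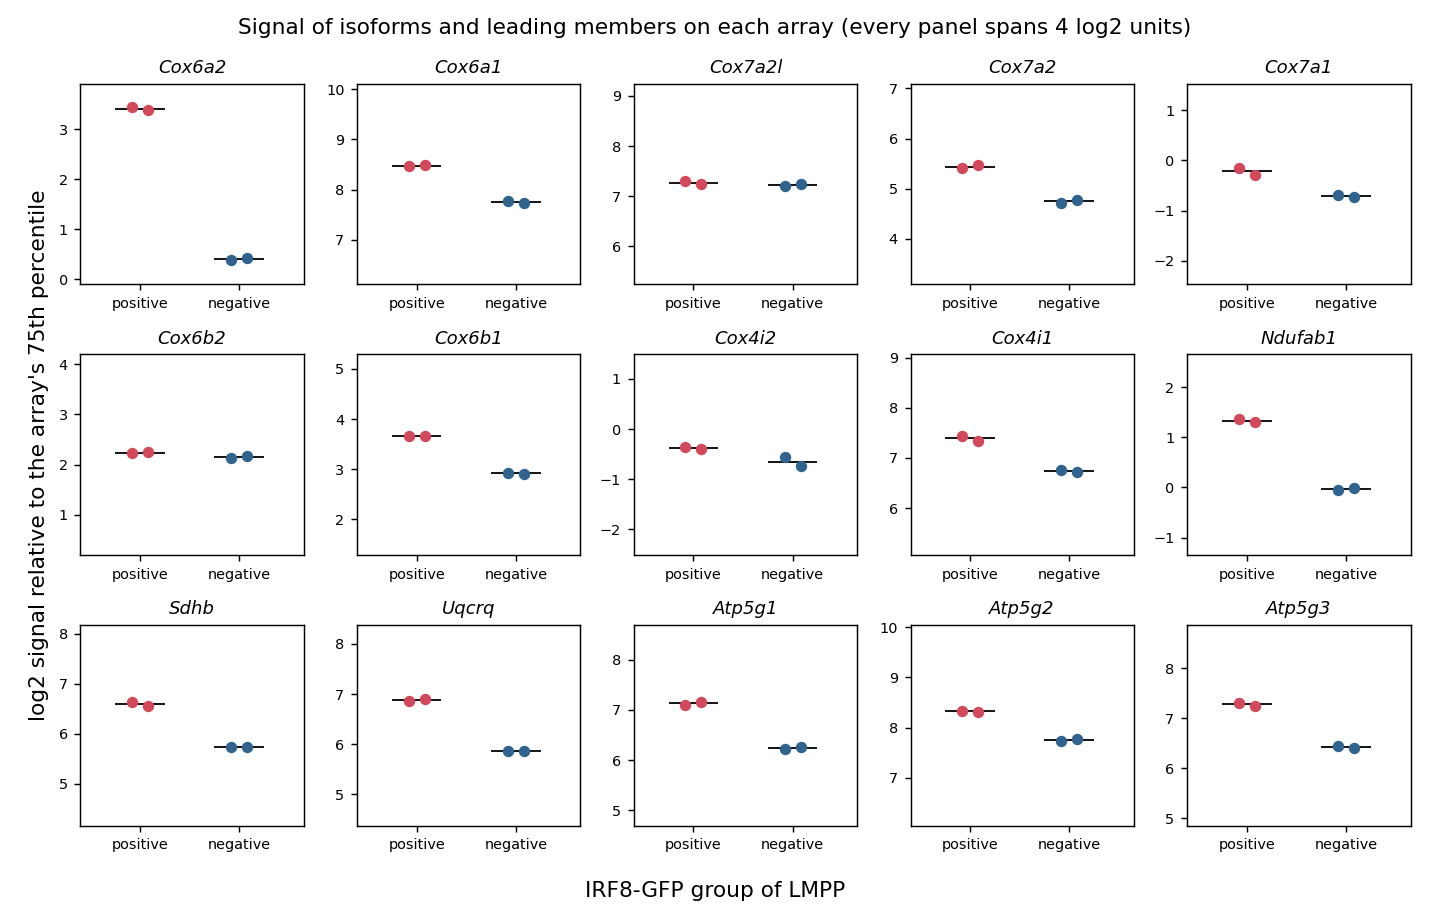
Log2 signal relative to the array's 75th percentile on each array (points) and group mean (lines) for isoforms of complex IV and ATP synthase and leading genes of complexes I to III, with IRF8-GFP positive left of IRF8-GFP negative and every panel spanning 4 log2 units. The step of Cox6a2 (3.44 and 3.37 on the positive arrays, 0.39 and 0.42 on the negative arrays) exceeds the others shown, and Cox7a2l is level.

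All 17 genes of complex V were higher, with a median of 0.73 and the narrowest spread of the larger complexes, from 0.54 for Atp5a1 to 0.89 for Atp5g1. The 5 genes of F1, the part that makes ATP, taken with its central stalk, had a median of 0.65. The 12 genes of the membrane part and the peripheral stalk had 0.75. Subunit c, which forms the rotor ring, is made from 3 genes that give the same mature protein. Atp5g1 had 7.10 and 7.17 on the positive arrays, against 6.23 and 6.25 on the negative arrays (0.89, SE 0.06, adjusted p = 0.00191). Atp5g3 had 7.30 and 7.25 on the positive arrays, against 6.45 and 6.41 on the negative arrays (0.84, adjusted p = 0.00199). Atp5g2 had 8.33 and 8.31 on the positive arrays, against 7.74 and 7.78 on the negative arrays (0.56, SE 0.06, adjusted p = 0.00319). All 3 were high on both positive arrays with no overlap. Atp5o, the stalk protein that confers oligomycin sensitivity, had 5.33 and 5.37 on the positive arrays, against 4.48 and 4.45 on the negative arrays (0.88, SE 0.06, adjusted p = 0.00185). Atp5k, a small membrane subunit, differed by 0.82. Atp5b, the catalytic beta subunit, had 8.17 and 8.12 on the positive arrays, against 7.51 and 7.52 on the negative arrays (0.63, SE 0.06, adjusted p = 0.00269). In the deposited matrix 11 of the 17 were higher, with a median of 0.25, and 2 of the 5 F1 genes.

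Where a gene had several kept probes they mostly gave the same answer. Of 23 such genes with 53 probes, 20 had probes whose differences spanned 0.15 or less, with a median span of 0.05. The probes of Ndufb5 gave 0.30 and 0.67 and those of Ndufv3 0.24 and 0.52. The probes of Ndufb11 disagreed, at 0.44 for the brighter and -0.05 for the dimmer.

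Other genes of energy metabolism were read from lists chosen with earlier results known. The shares of all tested genes to set beside their counts were 38.5% higher and 21.4% lower. They were 24.5% and 25.8% under loess, 14.8% and 36.2% under spike-in scaling, and 27.1% and 24.4% under quantile normalization. In the brightest 25%, 67.1% were higher and 7.85% lower. The 13 proteins of complexes I to V encoded by the mitochondrial genome were not analysed here. Assembly factors outside the Nduf names were higher for 31 of 33 tested (0 lower, median 0.49). Uqcc2, an assembly factor of complex III, differed by 0.94 (adjusted p = 0.00194) and Timmdc1, of complex I, by 0.85 (adjusted p = 0.0277), though not past the threshold without the exp 1 negative array (0.93) or the exp 2 negative array (0.76). Under spike-in scaling 13 of the 33 were higher and 1 lower.

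Of 16 tested genes for electron carriers, 12 were higher and 1 lower (median 0.39). Cycs, cytochrome c itself, had 6.26 and 6.28 on the positive arrays, against 5.02 and 5.07 on the negative arrays, a 2.34-fold difference (log2 1.23, SE 0.06, adjusted p = 0.00144). Pdss1, which starts the tail of ubiquinone, differed by 0.99 (adjusted p = 0.00164), and Coq8a, a ubiquinone synthesis factor, was the 1 that was lower (-0.36, adjusted p = 0.0112). It lost its call without the exp 1 negative array (-0.34) or the exp 2 negative array (-0.38). A coupling list of carriers, uncoupling proteins and an inhibitor of complex V had 6 tested genes, all higher (median 0.54). Among them were the ADP/ATP carrier Slc25a5 (0.93, adjusted p = 0.00190) and Atpif1, which inhibits ATP hydrolysis by complex V (0.67, adjusted p = 0.00243). Ucp2 and Ucp3, of the uncoupling protein family, differed by 0.33 and 0.37. Under spike-in scaling 6 of the 16 genes for electron carriers were higher and 1 lower, with a median of 0.086, and under loess 7 were higher and 1 lower. Under loess 1 of the 6 genes of the coupling list was past the threshold and higher, where 24.5% of all tested genes were.

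For pyruvate dehydrogenase and the citric acid cycle, 17 of 21 tested genes were higher and 1 lower (median 0.57). Fh1 (fumarase) and Idh3a (a subunit of isocitrate dehydrogenase) were higher by 1.06 and 1.01, with adjusted p = 0.00156 and 0.00190. Pdk2, a kinase that switches pyruvate dehydrogenase off, was the 1 that was lower (-0.80, adjusted p = 0.00308). Under quantile normalization 11 of the 21 were higher, under spike-in scaling 13 were higher and 2 lower, and the lowest median over the scalings was 0.24. Of the genes of the mitochondrial ribosome, which translates the mitochondrial genome, 75 of 77 tested were higher and 0 lower (median 0.63), with Mrpl58 and Mrpl12 leading at 1.0 and 0.99. Under loess 56 of the 77 were higher and 1 lower.

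Among 16 regulators of mitochondrial biogenesis 12 were higher and 1 lower, with a median of 0.38. Ppargc1a, the coactivator PGC-1 alpha, was the lower one, with -3.51 and -3.24 on the positive arrays, against -2.06 and -2.04 on the negative arrays (-1.32, SE 0.11, adjusted p = 0.00237). Its signal was dim in both groups, and the groups did not overlap. The factors whose motifs were searched had small differences: 0.53 for Nrf1 (adjusted p = 0.0103), 0.38 for Yy1 (adjusted p = 0.0167) and 0.21 for Gabpa (adjusted p = 0.0395), the last of which was below 0 under 2 of the 8 scalings. Gabpb1, for the other subunit of GABP, did not pass (0.075, limma adjusted p = 0.403) and was above 0 under 1 of the 8 scalings. Myc differed by 0.58 (adjusted p = 0.00286) and Tfam, which packs and transcribes mitochondrial DNA, by 0.39 (adjusted p = 0.00695). Without the exp 1 negative array Nrf1 (0.44), Yy1 (0.32) and Tfam (0.39) lost their calls, as Tfam did without the exp 2 negative array (0.39) and Gabpa without any 1 array (0.18 to 0.24). Under spike-in scaling 1 of the 16 was higher and 3 were lower.

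Glycolysis was mixed, with 13 of 20 tested genes higher and 4 lower (median 0.47). Pgam1 was higher by 1.09 (adjusted p = 0.00167) and Ldha, the lactate dehydrogenase subunit that favours lactate, by 0.80 (adjusted p = 0.00347). Aldoc, Eno2, Ldhb and the glucose transporter Slc2a3 were lower, at -1.37, -1.07, -0.98 and -0.78, and Eno2 lost its call without the exp 1 negative array (-0.90). Under loess 6 of the 20 were higher and 7 lower, near the shares of all tested genes (24.5% and 25.8%). Under spike-in scaling 7 were higher and 7 lower.

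**Figure D5:**
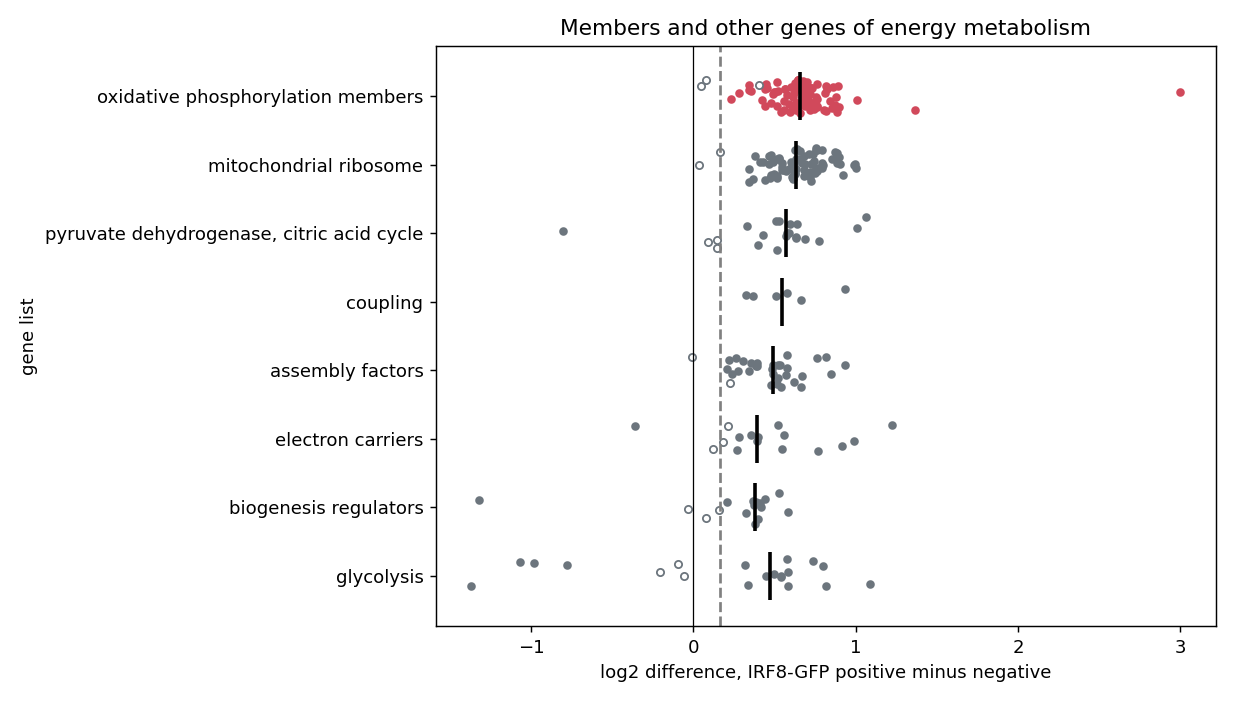
Log2 difference (IRF8-GFP positive minus negative) of the 90 oxidative phosphorylation genes (red) and of 7 other gene lists (grey), with filled points for adjusted p under 0.05, open points otherwise, black bars at the list medians and a dashed line at the median of all tested genes (0.16). The medians run from 0.66 for the oxidative phosphorylation genes to 0.38 for the biogenesis regulators, and glycolysis spreads to both sides of 0.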

How the data were processed

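Total RNA of 2 IRF8-GFP positive and 2 IRF8-GFP negative samples was hybridized to 4 one-colour arrays. Agilent Feature Extraction 10.7.3.1 read the scans, per the file headers. The deposited intensity of each spot is a processed signal, background-subtracted and not normalized between arrays. The authors' deposited matrix holds intensity on a linear scale with the same sorted values in each column, and how it was centred is not known here. Control and outlier spots were left out. Spots of a probe were averaged, and log2 intensity minus each array's 75th percentile was used (signals of 318 and 414 on the positive arrays, 438 and 543 on the negative arrays). A probe was kept when at least 0.5 of its spots were well above background on both arrays of a group (30478 of 55681 probes). Accessions were matched without version to RefSeq symbols (GRCm38.p6), which named 26756 probes with 1 symbol and left 28913 with none. Coordinates and promoters are those of that annotation, and no position was taken from the array. A gene was its brightest kept probe.

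The 22362 genes and unnamed transcripts were fitted with limma 3.58.1 in R 4.3.3 (lmFit and eBayes, positive minus negative, two-sided, Benjamini-Hochberg adjustment). The prior SD was 0.0749 with 2.05 prior and 2 residual degrees of freedom, so p-values rest on the model, and precision is limited by having 4 arrays. The fit was tested on simulated data. Members and lists were chosen with earlier results of these data known, so no list was tested. Named genes are the leading ones of each complex past the threshold, the isoform families, genes not detected, and up to 2 leading genes of each other list, and further ones are examples chosen after their values were seen. Alternatives were other scalings (7 bright spike-in probes among them), filters, variance models, probe rules, thresholds, arrays left out and the replicate number as a block. Normexp used median spot and background signals. The summed signal of the erythroid marker list is not reported here.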

Additional observations from a re-analysis of the deposited data

How the results depend on the processing

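The number of arrays and the choice of scale limit the precision of every difference, and 4 members with no signal above background have no value. Of 684 values of the 36 members named by the rule under an alternative, 646 kept direction and side of the threshold, 24 lost the call and 14 changed sign. Of the 36, 33 kept their direction and 27 their call under every alternative run. Leaving out 1 array gave 78 to 85 higher members and 0 lower (21.3% to 35.8% of all genes higher), with 77 called each time, and 50 of the 51 called under all 8 scalings also kept the call in each of these. The experiment numbers did not show pairing (correlation of same-number deviations over genes 0.0971), and with the replicate number as a block 88 members were higher and 0 lower (40.7% of all genes higher).

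Fewer members passed under quantile normalization (57 higher, 1 lower) and the deposited matrix (56 and 1), while 2 were lower under spike-in scaling and 1 under cyclic loess. The shift of the members' median above that of all genes (0.50) became 0.38 under normexp, 0.21 under quantile normalization and the deposited matrix, 0.26 under loess and 0.32 with no filter. In the same order, it was 0.36, 0.19, 0.19, 0.24 and 0.30 for complex I (0.48 as reported), 0.36, 0.24, 0.24, 0.26 and 0.30 for complex II (0.48), 0.44, 0.32, 0.32, 0.34 and 0.39 for complex III (0.56), 0.41, 0.22, 0.22, 0.28 and 0.33 for complex IV (0.52), and 0.47, 0.22, 0.21, 0.29 and 0.39 for complex V (0.57). With probes well above background on all 4 arrays it was 0.44 for complex II and 0.52 for complexes III and V. Arrays left out gave 0.45 to 0.52 for complex II and 0.54 to 0.59 for complex III. The filters change only the genes compared with, since all tested members were detected on all 4 arrays. For the scalings the cause was not tested.

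The signs that turned were those of Cox4i2 (-0.030 under spike-in scaling), Cox6b2 (-0.13 quantile, -0.16 percentile over detected probes, -0.13 deposited matrix, -0.23 spike-in, -0.15 loess, -0.085 centring on the tested genes), Cox7a2l (-0.021 normexp, -0.36 quantile, -0.19 detected probes, -0.36 matrix, -0.26 spike-in, -0.40 loess, -0.12 centring), Flt3 (-0.22 quantile, -0.23 matrix, -0.058 spike-in, -0.17 loess) and Cd34 (-0.14 quantile, -0.14 matrix, -0.045 spike-in, -0.20 loess). Among further examples, they were those of Ndufb11 (-0.039 quantile, -0.043 matrix), Ndufa13 (-0.060 quantile, -0.064 matrix, -0.084 loess), Ndufa6 (-0.16 quantile, -0.0044 detected probes, -0.16 matrix, -0.079 spike-in, -0.15 loess), Uqcrh (-0.033 quantile, -0.037 matrix, -0.012 loess) and Gabpa (-0.026 detected probes, -0.10 spike-in). The cause was not tested.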
